A study of Mus musculus with 24 samples.

Results

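The carnitine shuttle genes were described by their promoter and gene-body peaks of H3K9ac, the acetylation of lysine 9 of histone H3 that marks active promoters. The 8 genes were taken from a fixed list of the transport steps and not from measured values, and they stand among 21755 protein-coding genes. They were Slc22a5, Cpt1a, Cpt1b, Cpt1c, Slc25a20, Cpt2, Crat and Crot. H3K9ac was profiled by ChIPmentation, in which immunoprecipitated chromatin is tagged by a transposase, in day 5 spheroids of 4T1, a mouse mammary carcinoma cell line. Each of 4 groups had 3 libraries, and 1 peak list per library was analysed.

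The scramble group carried a guide that, in the study's methods, targets EGFP and no mouse gene, and it was grown with 75 µM palmitate. The CPT1a knockout (CPT1a KO) and KAT2a knockout (KAT2a KO) groups were grown with the same palmitate. The fourth group was CPT1a KO given 5 mM acetate, and its labels do not say whether palmitate was also present, while a figure legend of the study has the spheroids compared with and without acetate growing in palmitate. All groups came from 4T1 cells with a doxycycline-inducible Cas9 and a guide delivered by lentivirus under puromycin selection. The methods describe guides to 2 exons of each target, and neither the guide of a given library nor a clonal origin is named in the labels. A peak list does not read the edited exons, so H3K9ac at Cpt1a or Kat2a does not check the knockout. The labels do not say that the replicates were separate cultures, and p-values measure only the spread between these libraries.

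Long-chain fatty acids enter mitochondria as acylcarnitines. Carnitine is taken up by OCTN2 (Slc22a5), a CPT1 enzyme on the outer membrane joins it to the fatty acid, the carrier CACT (Slc25a20) exchanges the product across the inner membrane, and CPT2 returns it to coenzyme A for beta-oxidation. CPT1A is the isoform of liver and most other tissues, CPT1B that of muscle and heart, and CPT1C that of brain. Carnitine acetyltransferase (Crat) and carnitine octanoyltransferase (Crot) do the same chemistry on acetyl and on medium-chain groups, the latter in peroxisomes.

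A promoter was the 1 kb on each side of every annotated transcription start site (TSS) of a gene, and the strongest peak touching it stood for the gene. Its fold enrichment, the summit signal over the local background, was not scaled between libraries, so each gene was given a percentile, the share of 10777 genes with a lower fold enrichment in the same library. Those 10777 genes, 49.5% of all, had a promoter peak in every library. In all, 6 of the 8 shuttle genes were among them.

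The promoter bases of 4 members are shown. They set the member whose rank differed most from scramble, Cpt1a, beside Slc22a5, the most CpG-rich of those with a RefSeq promoter. They also set it beside Slc25a20 and Cpt1c, the lowest ranked. They are RefSeq promoters of GRCm38.p6 cut at the first annotated exon, printed along the gene strand, and they lie at chr19:3323051-3323284 (+), chr11:53891704-53891953 (-), chr9:108661886-108662087 (+) and chr7:44974852-44975101 (-) in that order. Capitals mark a GC box (GGGCGG, or CCGCCC where it lies on the other strand) or a CCAAT box (ATTGG on the other strand).
Cpt1a: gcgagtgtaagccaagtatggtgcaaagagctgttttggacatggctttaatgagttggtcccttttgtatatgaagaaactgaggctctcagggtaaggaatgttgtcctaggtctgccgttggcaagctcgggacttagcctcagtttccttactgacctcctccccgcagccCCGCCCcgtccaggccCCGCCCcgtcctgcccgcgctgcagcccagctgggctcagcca
Slc22a5: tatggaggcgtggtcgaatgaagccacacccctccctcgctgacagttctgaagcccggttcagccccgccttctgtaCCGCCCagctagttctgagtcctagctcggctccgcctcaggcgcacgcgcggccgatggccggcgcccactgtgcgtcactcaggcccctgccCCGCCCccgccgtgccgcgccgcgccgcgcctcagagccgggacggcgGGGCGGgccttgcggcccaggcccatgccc
Slc25a20: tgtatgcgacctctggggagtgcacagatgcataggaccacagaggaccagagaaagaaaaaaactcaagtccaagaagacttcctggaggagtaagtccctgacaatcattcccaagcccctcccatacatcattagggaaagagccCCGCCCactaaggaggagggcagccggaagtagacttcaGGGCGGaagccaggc
Cpt1c: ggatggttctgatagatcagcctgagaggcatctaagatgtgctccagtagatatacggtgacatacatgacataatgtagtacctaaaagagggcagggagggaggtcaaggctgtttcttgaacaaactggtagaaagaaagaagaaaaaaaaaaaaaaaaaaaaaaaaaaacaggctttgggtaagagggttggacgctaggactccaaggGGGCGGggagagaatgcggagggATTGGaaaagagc

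RefSeq promoters of 300 bases were found for 6 of the 8 members. All 6 held a GC box, which was present in 35.7% of 32851 promoters of the same length. CCAAT was found in Cpt1a, Cpt1c and Crot, against 37.4% of all promoters. TATAAA, present in 13.6%, the E-box CACGTG, present in 7.15%, and the DR1 element AGGTCANAGGTCA, present in 0.0396%, were found in none of the 6. Both strands were searched, and a match describes letters only. CpG pairs in the 300 bases numbered 34 in Slc22a5, 29 in Crot, 22 in Cpt1a, 17 in Cpt2, 13 in Slc25a20 and 8 in Cpt1c. Slc22a5 and Crot, the richest in CpG of these 6, did not carry the highest H3K9ac ranks among them, as the values below show. No such promoter was found for Cpt1b or for Crat, the highest-ranked member, so their CpG pairs were not counted.

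The depth at which the peaks were called, solved from the deposited values as mean fragment coverage of the genome, was 1.87 to 2.52 in the scramble libraries and 0.554 to 1.91 in the others. The lists held 29153 to 34330 peaks in scramble and 16201 to 24594 in the others. The median promoter fold enrichment of the 10777 genes was 18.97 ± 0.348 (SD, n = 3) in scramble and 25.7 ± 6.62, 24.7 ± 1.62 and 28.8 ± 2.40 in CPT1a KO, CPT1a KO with acetate and KAT2a KO. Peak number separated scramble from the others and depth was on average higher there, and their part in the results was not tested. Of 8 epithelial markers, 6 had a promoter peak in every library, while 0 of 5 leukocyte and 0 of 3 endothelial markers had a peak in any. Of 4 fibroblast markers only Col1a1 had a peak, in 11 libraries and at a percentile of at most 2.73.

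The 6 members with a peak in every library spanned most of the range of promoter H3K9ac. Over the 12 libraries the mean percentile was 85.6 ± 6.24 (SD, n = 12) for Crat, 53.0 ± 9.98 for Cpt2, 46.1 ± 16.7 for Cpt1a, 27.1 ± 14.1 for Slc22a5, 24.2 ± 7.45 for Crot and 7.18 ± 3.89 for Slc25a20. Crat stood above Cpt2 in 12 of 12 libraries, by 32.7 ± 12.3 points, and Crot above Slc25a20 in 12 of 12, by 17.0 ± 8.09 points. The other neighbours did not separate beyond their spread. Cpt2 exceeded Cpt1a in 8 libraries, by 6.90 ± 14.4 points, Cpt1a exceeded Slc22a5 in 10, by 18.9 ± 20.4 points, and Slc22a5 exceeded Crot in 6, by 2.96 ± 16.4 points. The carrier gene Slc25a20 ranked lowest of the 6, and the highest rank belonged to a peak that Crat shares with a neighbouring gene, as described below.

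**Figure D1:**
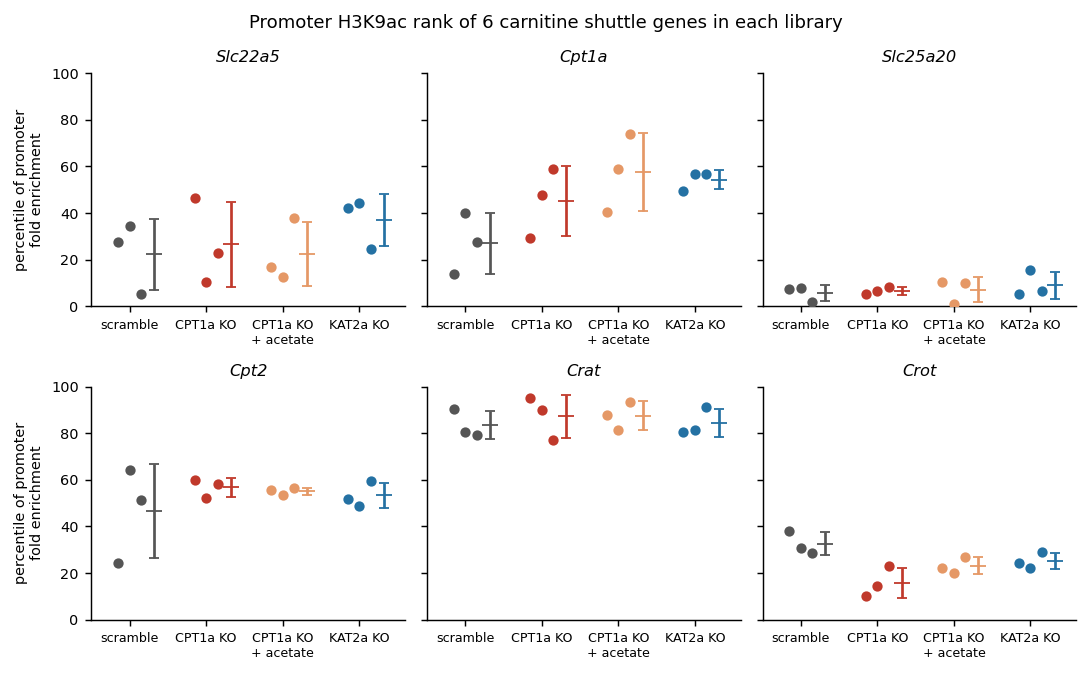
Percentile of promoter fold enrichment (vertical axis, 0 to 100) of the 6 members called in every library, by group. Points are libraries, and the cross-bar and whiskers are the mean and SD of 3. Crat lies at 77.0 or above throughout, Slc25a20 at 15.6 or below, and Cpt1a is lower in scramble than in most other libraries.

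The comparisons asked whether loss of CPT1a or KAT2a, or acetate given to CPT1a KO cells, changed H3K9ac at these promoters. Ranks were converted to normal scores and tested with limma across all 10777 genes, with Benjamini-Hochberg adjustment over all of them. No member passed an adjusted p of 0.05 in any of 5 comparisons. In CPT1a KO against scramble 0 of 6 members were called, beside 9.84% of all genes. In KAT2a KO against scramble 0 of 6 were called, beside 3.68%. In CPT1a KO with acetate against CPT1a KO 0 of 6 were called, beside 0.0% of all genes, although 1005 genes had an unadjusted p under 0.05. In CPT1a KO with acetate against scramble 0 of 6 were called, beside 5.33%, and in the 3 other groups together against scramble 0 of 6, beside 12.9%. At an unadjusted p under 0.05 the count was 1 member in each of the 4 comparisons with scramble, beside 2955, 2314, 2461 and 3176 of all genes in the order above, and 0 in the comparison of acetate with CPT1a KO. With 3 libraries against 3 the exact permutation test cannot go below p = 0.1 and could call no gene. With 3 against 9 it called 0 members and 982 of all genes after the same adjustment.

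Carnitine uptake comes first in the pathway. Slc22a5 (chr11:53864542-53891660, GRCm38, minus strand) encodes the sodium-dependent carnitine transporter. Its percentiles were 27.6, 34.3 and 5.25 in scramble, 46.5, 10.5 and 22.9 in CPT1a KO, 16.8, 12.7 and 37.9 in CPT1a KO with acetate, and 42.4, 44.5 and 24.4 in KAT2a KO. The groups overlapped throughout, and the lowest value of all was scramble replicate 3. The score difference of the 3 other groups from scramble was 0.26 ± 0.31 (SE), with an adjusted p of 0.616 by limma.

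Cpt1a (chr19:3322334-3385733, plus strand), which encodes the rate-limiting enzyme of mitochondrial fatty acid entry, is the targeted gene of 2 groups. It kept a promoter peak in all 12 libraries, and its rank was lowest in scramble. Its percentiles were 13.7, 40.0 and 27.4 in scramble, and 29.3, 47.6 and 58.8 in CPT1a KO. They were 40.5, 58.7 and 73.8 in CPT1a KO with acetate, and 49.7, 56.7 and 56.6 in KAT2a KO. KAT2a KO and CPT1a KO with acetate lay above scramble without overlap, as did 14.3% and 14.9% of all genes in that direction, while CPT1a KO overlapped scramble.

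The score difference of Cpt1a from scramble was 0.52 ± 0.30 (SE) in CPT1a KO, with a 95% interval of -0.13 to 1.17 and an adjusted p of 0.286 by limma. It was 0.76 ± 0.30 in KAT2a KO, with an adjusted p of 0.168, and 0.86 ± 0.30 in CPT1a KO with acetate, with an adjusted p of 0.117. Acetate differed from CPT1a KO by 0.33 ± 0.30, with an adjusted p of 0.796. For the 3 other groups together the difference was 0.71 ± 0.25, with a 95% interval of 0.18 to 1.24, larger than that of 90.3% of genes. Its adjusted p was 0.0735 by limma, and the exact two-sided permutation test of 3 against 9 libraries gave p = 0.00909 for this gene alone and 0.0728 after adjustment over all genes. Cpt1a therefore stayed above the threshold of 0.05 in every comparison. It fell below it with the peaks ranked by -log10 p, where the adjusted p for the 3 groups together was 0.0124. It also did so without CPT1a KO replicate 1 (0.0463), on centred log2 fold enrichment (0.0424) and with the replicate block (0.0489).

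As deposited, the fold enrichment of Cpt1a was 10.9, 17.3 and 13.7 in scramble and 20.2 to 32.9 in the 9 other libraries. All 9 exceeded scramble, as they did for 20.4% of all genes, and the median promoter was higher in most of them too. The summit signal was 39.4 to 131 in the 11 libraries where it could be solved. It is a coverage value, not whole in every library, and not a count of fragments. The local background of scramble replicate 1, the library with the lowest percentile, was 2.78 times its genome-wide level, against 1.36 to 2.11 elsewhere, and the part of this value in that percentile was not tested.

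The peak of Cpt1a did not sit on its first annotated TSS. The summit lay 1262 to 1483 bp downstream of it in every library, past the annotated starts at 951 and 1014 bp and the RefSeq start at 967 bp whose upstream bases are printed above. A weaker peak near the first TSS was separate in some libraries and fused with the main peak in others. A further peak with its summit at 3483 to 3913 bp was called in 7 libraries, 2 of scramble and 5 of the others, at a fold enrichment of 3.65 to 8.94. In the libraries with the longest main peak that stretch was part of it.

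**Figure D2:**
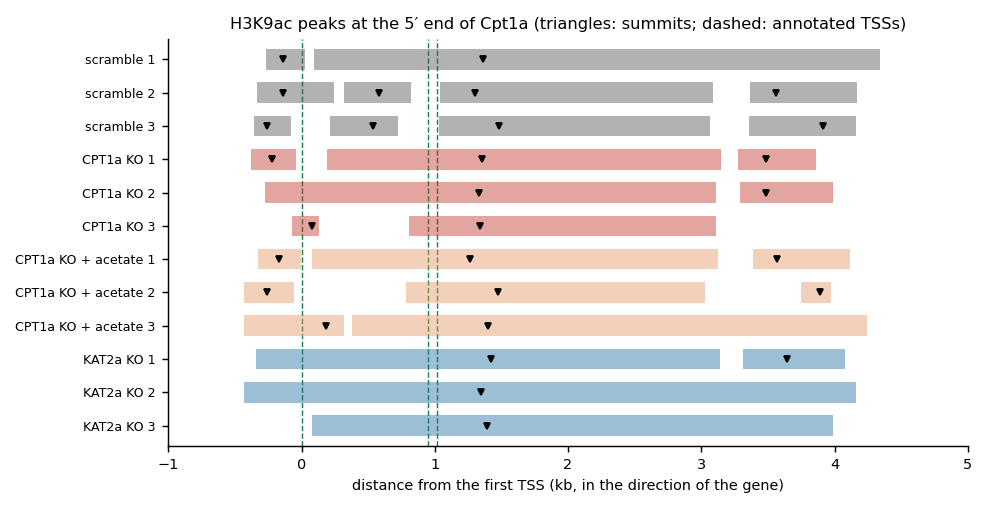
H3K9ac peaks at the start of Cpt1a in each library, drawn as bars against distance from the first TSS in kb along the gene. Triangles are summits and dashed lines annotated TSSs. The main summit lies between 1262 and 1483 bp in all 12 libraries, downstream of the starts at 951 and 1014 bp.

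Cpt1b (chr15:89416405-89425863, minus strand), the muscle isoform, had a promoter peak in 0 of 12 libraries. The nearest peak ended 1804 to 2790 bp from its nearest annotated TSS and touched the promoter of Chkb, the choline kinase gene whose TSS lies 1296 bp away on the same strand. Cpt1c (chr7:44959372-44974851, minus strand), the brain isoform, was called in 7 of 12 libraries, 2 of scramble, 2 of CPT1a KO, 2 of CPT1a KO with acetate and 1 of KAT2a KO. Where called, its fold enrichment was 3.40 to 6.49 and its percentile at most 0.343, the bottom of the scale, and every group held both called and uncalled libraries. In the other 5 libraries the nearest peak was 8388 to 8522 bp away. Of the CPT1 isoforms, Cpt1a alone had a promoter peak in every library, and among the 5 genes listed as typical of liver or muscle only Ckm did.

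Slc25a20 (chr9:108662088-108684641, plus strand), the carnitine-acylcarnitine carrier, ranked low everywhere. Its percentiles were 7.53, 8.07 and 1.73 in scramble and 1.18 to 15.6 in the 9 other libraries, with full overlap. The score difference of the 3 other groups was 0.15 ± 0.26 (SE), with an adjusted p of 0.736 by limma.

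Cpt2 (chr4:107903981-107923610, minus strand), which encodes the enzyme of the inner membrane, was the steadiest member outside scramble. Its percentiles were 24.4, 64.1 and 51.5 in scramble and 48.8 to 59.7 in the 9 others. Scramble held both the lowest and the highest value, and scramble replicate 1 was low for Cpt2 as for Cpt1a. The difference of the 3 other groups was 0.23 ± 0.22 (SE), with an adjusted p of 0.530 by limma.

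Crat (chr2:30400471-30415813, minus strand) transfers acetyl groups between coenzyme A and carnitine, and its product can leave the mitochondrion. It ranked high in every library, at 90.2, 80.7 and 79.1 in scramble and 77.0 to 95.0 in the others. The difference of the 3 other groups was 0.16 ± 0.24 (SE), with an adjusted p of 0.703 by limma. The Crat peak is shared. Its first TSS lies 226 bp from that of Ptpa, a phosphatase activator transcribed the other way, and the peak spans both, so the value cannot be assigned to either gene.

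Crot (chr5:8966033-8997324, minus strand) encodes the peroxisomal enzyme, and in the comparisons with scramble its differences had the opposite sign to those of Cpt1a. Its percentiles were 38.1, 30.9 and 28.6 in scramble, 9.97, 14.5 and 22.9 in CPT1a KO, 22.4, 20.0 and 27.1 in CPT1a KO with acetate, and 24.4, 22.4 and 28.9 in KAT2a KO. CPT1a KO lay below scramble without overlap, as did 15.3% of all genes, and so did CPT1a KO with acetate, as did 17.0%. The score difference was -0.58 ± 0.23 (SE) in CPT1a KO, with a 95% interval of -1.07 to -0.08 and an adjusted p of 0.124 by limma. For the 3 other groups it was -0.36 ± 0.19, with an adjusted p of 0.228. The exact two-sided permutation test of 3 against 9 libraries gave p = 0.0318 for Crot alone, and its adjusted p over all genes was 0.142. Acetate differed from CPT1a KO by 0.30 ± 0.23, with an adjusted p of 0.746.

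Over the 6 members the median score difference was 0.20 in CPT1a KO, 0.22 in KAT2a KO, 0.13 in CPT1a KO with acetate and 0.19 in the 3 groups together, each against scramble. Over all genes it was 0.01, 0.00, 0.00 and 0.01. In each of these comparisons 5 members had a positive difference and 1, Crot, a negative one, and all share the scramble libraries. For the 3 groups together the sign was not stable. Slc25a20 (-0.08) and Slc22a5 (-0.11) turned negative without scramble replicate 3, and Cpt2 without scramble replicate 1 (-0.07) or ranked by -log10 p (-0.16). Crat did so with the GC trend removed (-0.10) or on centred log2 fold enrichment (-0.01).

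The length covered by promoter peaks gave more calls. Peaks were narrower in the other groups over the whole series, with a median log2 difference over all genes of -0.54 in CPT1a KO, -0.32 in KAT2a KO, -0.38 in CPT1a KO with acetate and -0.41 in the 3 together. Against that background, 4 of 6 members were called narrower in CPT1a KO (Slc25a20, Crat, Crot and Slc22a5), beside 61.4% of all genes. In KAT2a KO 1 of 6, Crat, was called narrower, beside 18.5%, a share that rests on single libraries. Calls over all genes in either direction numbered 2088 there, 35 without scramble replicate 3 and 3663 without CPT1a KO replicate 3. In CPT1a KO with acetate against scramble 1 of 6, Crat, was called narrower, beside 30.5%. Calls in either direction moved there from 3339 to 164 without acetate replicate 2 and to 339 without scramble replicate 1. In the 3 groups together 2 of 6, Crat and Crot, were called, beside 54.9%. Between CPT1a KO with acetate and CPT1a KO limma called 0 of 6, with 1 at an unadjusted p under 0.05, beside 0.0% of all genes, with 428 at an unadjusted p under 0.05. The shares of members called lay near or below those of all genes.

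Crat showed the clearest narrowing. Its promoter peaks covered 4223, 4003 and 3943 bp in scramble, and 2840, 2728 and 2414 bp in CPT1a KO. They covered 3112, 2743 and 2989 bp in CPT1a KO with acetate, and 2779, 3341 and 2885 bp in KAT2a KO. Scramble lay above all 9 other libraries for Crat and for Crot, as for 41.3% of all genes. The log2 difference of Crat was -0.61 ± 0.13 (SE) in CPT1a KO, with an adjusted p of 0.00339 by limma, and -0.50 ± 0.11 in the 3 groups together, with an adjusted p of 0.00329. These are 34.5% and 29.5% less covered length, and both calls held with any single library left out. Less the median over all genes, they were -0.07 and -0.09. In KAT2a KO it was -0.44 ± 0.13, with an adjusted p of 0.0393, and in CPT1a KO with acetate -0.46 ± 0.13, with an adjusted p of 0.0245. The KAT2a KO call was lost without any 1 of scramble replicates 1 and 3, CPT1a KO replicates 1 and 2, acetate replicates 1 and 3 and KAT2a KO replicates 1 and 3 (adjusted p 0.0507 to 0.143). It was also lost with the strongest peak alone (adjusted p 0.0965) and with the replicate block (adjusted p 0.0534). In both, and without a CPT1a KO or acetate library, the difference stayed at -0.44. The acetate call was lost without any 1 of scramble replicates 1 and 3 and acetate replicates 1 and 2 (0.0507 to 0.100). It was also lost with the strongest peak alone (-0.50, adjusted p 0.0580) and with peaks within 500 bp joined (-0.34, adjusted p 0.0983).

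The narrowing of Crat lay mainly on the Ptpa side. Counted from the first Crat TSS, with upstream negative, that edge was at -2654 to -2513 bp in scramble and -2053 to -1269 bp in the 9 others. The edge inside Crat was at 1372 to 1568 bp in scramble and 1144 to 1563 bp in the others, with a median of 1282 bp there. The ranges overlapped only through replicate 1 of CPT1a KO with acetate, where the strongest peak reached 1563 bp. The summit stood at -1028 to -1005 bp in scramble and -743 to -561 bp in the others.

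Crot was covered over 2881, 2089 and 2717 bp in scramble, and over 1168 to 2063 bp in the 9 others. The log2 difference was -0.61 ± 0.21 (SE) in CPT1a KO, with an adjusted p of 0.0242 by limma, and -0.45 ± 0.17 in the 3 groups together, with an adjusted p of 0.0378. In scramble the gene had 2 peaks, an upstream one ending between -2 and 34 bp of its first TSS and a stronger one starting at 128 to 222 bp, with the stronger summit at 697, 938 and 847 bp downstream. In 8 of the 9 others a single peak ran over this gap, with summits at 310 to 603 bp over all 9. With the strongest peak alone, which leaves out the upstream peak in scramble and includes that stretch in 8 of the 9 others, the difference was 0.0567 in the 3 groups together and -0.20 in CPT1a KO, with adjusted p of 0.888 and 0.648. The edge inside the gene was at 1659 to 2051 bp in scramble and 926 to 1541 bp in the others. In the 3 groups together the difference was -0.21 with depth as a covariate, with an adjusted p of 0.179. The call was also lost without scramble replicate 1 (adjusted p 0.172) or scramble replicate 3 (0.120), and without acetate replicate 2 or any KAT2a KO replicate (0.0511 to 0.0594). In CPT1a KO with acetate, where Crot was not called, it was called without CPT1a KO replicate 3 (0.0307). It was also called there with peaks within 500 bp joined (-0.57, adjusted p 0.0277).

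Slc25a20 was covered over 1444, 991 and 870 bp in scramble and 751, 640 and 489 bp in CPT1a KO. The log2 difference was -0.80 ± 0.25 (SE), with an adjusted p of 0.0155 by limma. Slc22a5 was covered over 1673, 1448 and 1218 bp in scramble and 1106, 1041 and 670 bp in CPT1a KO, a log2 difference of -0.65 ± 0.22, with an adjusted p of 0.0245. In CPT1a KO the calls of Slc25a20, Crot and Slc22a5 were each lost without scramble replicate 1 (adjusted p 0.0765, 0.0901 and 0.0954) and without CPT1a KO replicate 3, the shallowest library (0.0685, 0.0984 and 0.110). That of Crot was also lost without scramble replicate 3 (0.0660). With depth as a covariate the differences were -0.41, -0.31 and -0.30, and none of these calls held (0.0576, 0.107 and 0.101). With the strongest peak alone those of Slc25a20 and Slc22a5 were lost too (0.0571 and 0.0646), while their differences stayed at -0.80 and -0.65. In the 3 groups together the difference of Slc22a5 was -0.44 ± 0.18, with an adjusted p of 0.0556, and it was called without CPT1a KO replicate 1 or 2, acetate replicate 1 or KAT2a KO replicate 2 (0.0403 to 0.0487). Between CPT1a KO with acetate and CPT1a KO the difference of Slc25a20 was 0.56 ± 0.25, with an adjusted p of 0.783. Cpt1a and Cpt2 were not called in any width comparison. Their differences for the 3 groups together were 0.03 ± 0.19 and -0.12 ± 0.24, with adjusted p of 0.895 and 0.684.

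**Figure D3:**
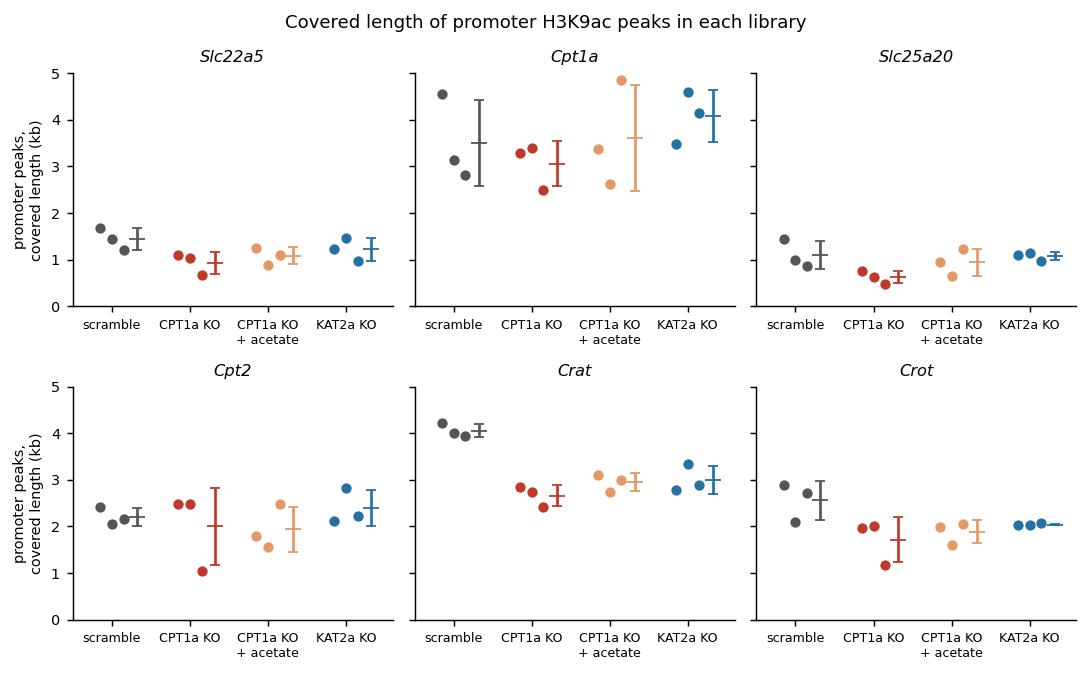
Length covered by promoter peaks (vertical axis, kb) of the 6 members in each library, by group. Points are libraries, and the cross-bar and whiskers are the mean and SD of 3. For Crat and Crot the 3 scramble libraries lie above the 9 others, while Cpt1a and Cpt2 overlap.

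Where the summit stood also differed. For Crat and Crot the summit positions of scramble and of the 9 others did not overlap, as for 40.7% of all genes. The edge upstream of the gene did not overlap for Crat and Cpt2, as for 32.5%. The upstream edge of the Cpt2 peak was 34 to 89 bp past the first TSS in scramble and between -528 and 29 bp in the others. The first TSS of Cpt2 lay inside a peak in 0 of 3 scramble libraries and 8 of 9 others, and that of Slc22a5 in 0 of 3 and 7 of 9. Over all 10777 genes, the first TSS lay inside a peak in 54.1 to 72.0% of genes in scramble and in 72.2 to 90.1% in the others. The median distance from summit to nearest own TSS over these genes was 478 to 527 bp in scramble and 261 to 316 bp in the others. For Cpt1a the first TSS lay inside a peak in 2 of 3 scramble libraries and 5 of 9 others, and its summit and both edges overlapped, as did those of Slc25a20.

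Peaks inside the gene bodies, outside the promoter windows, were few. Over the 8 members they numbered 3, 2 and 3 in scramble, 1, 1 and 0 in CPT1a KO, 2, 2 and 1 in CPT1a KO with acetate, and 1, 0 and 0 in KAT2a KO. Cpt1a held 8 of these peaks, Cpt2 and Slc25a20 each 3, and Crot and Slc22a5 each 1. Cpt1b, Cpt1c and Crat held 0. Over all genes the lists held 8570 to 11868 gene-body peaks in scramble and 2397 to 7032 in the others. The count over the members was likewise higher on average in scramble. Among the others the counts did not run together, with 2 and 5414 in acetate replicate 2 and 0 and 6644 in KAT2a KO replicate 2. Where the downstream stretch of Cpt1a was part of its promoter peak, it was not counted here.

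The members were set beside other genes of fatty acid oxidation, in 6 lists of 62 genes chosen with earlier results of these data known. Of these, 46 had a promoter peak in every library, 3 in some and 12 in none, and 1 was not matched in the annotation. By rank, 4 of the 46 were called higher and 3 lower in CPT1a KO against scramble, beside 9.84% of all genes in either direction. Against scramble, 1 was called higher and 1 lower in KAT2a KO, beside 3.68%. The counts were 1 and 1 in CPT1a KO with acetate, beside 5.33%. For the 3 groups together 6 were called higher and 3 lower, beside the same 12.9% of all genes in either direction. Acetate against CPT1a KO gave 0 of 46 by limma, with 5 at an unadjusted p under 0.05.

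Among carnitine uptake genes, Slc22a4, the related transporter OCTN1, rose by a score of 0.94 ± 0.27 (SE), with an adjusted p of 0.0351 by limma. Its percentile was 16.1 to 49.7 in scramble and 43.6 to 85.3 in the others. In the control of CPT1 by malonyl-CoA, Prkab2, a regulatory subunit of AMP-activated kinase, rose by 1.01 ± 0.23, with an adjusted p of 0.0121, from a percentile of at most 8.81 in scramble to at least 16.3. Of 6 tested acyl-CoA synthetase and fatty acid transport genes 0 were called, with 0 at an unadjusted p under 0.05. In mitochondrial beta-oxidation Etfa, an electron transfer flavoprotein subunit, rose by 1.58 ± 0.43, with an adjusted p of 0.0280, and Acadm, the medium-chain acyl-CoA dehydrogenase, fell by 0.79 on the score scale, with an adjusted p of 0.0326.

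In peroxisomes, where Crot acts, 2 of 8 tested genes, Scp2 and Abcd3, fell, beside the 12.9% of all genes called in either direction. Scp2, a thiolase and sterol carrier, changed by -1.29 ± 0.22 (SE) with an adjusted p of 0.0032 by limma, and its percentile was 70.4 to 77.7 in scramble and 12.9 to 42.0 in the others. Abcd3, a peroxisomal transporter, changed by -0.76 ± 0.20, with an adjusted p of 0.0249. The median of the 8 tested peroxisomal genes was -0.37, beside 0.01 over all genes. Of 6 tested regulators 3 rose, beside the same 12.9%, and neither list was tested as a whole. They were Tfeb, a lysosomal regulator, by 1.20 ± 0.25, Ppard, a fatty acid receptor, by 1.08 ± 0.25, and Rxra, its partner receptor, by 0.87 ± 0.23, with adjusted p of 0.00827, 0.0138 and 0.0247 in that order. The median over the 6 was 0.80, beside 0.01 over all genes.

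**Figure D4:**
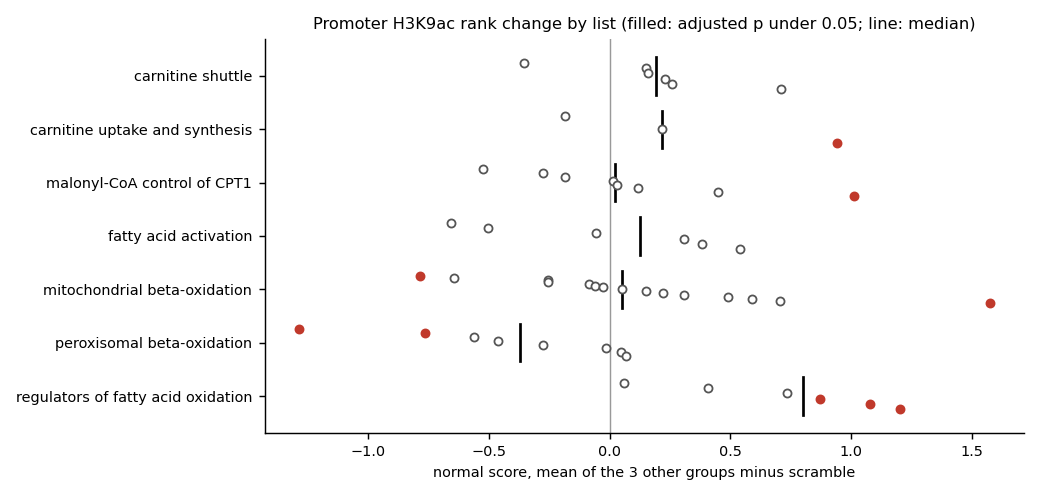
Difference in promoter rank, on the normal score scale, between the 3 other groups and scramble (horizontal axis) for the members and the genes of 6 lists. Each circle is a gene, filled where the adjusted p is under 0.05, and the vertical line is the median of its list. No member is filled, Cpt1a lies at 0.71 and Crot at -0.36.

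The other targeted gene, Kat2a, encodes an acetyltransferase that acts on lysine 9 of histone H3. Its percentile was 6.03 to 8.05 in scramble, 35.7 to 60.7 in CPT1a KO, 25.9 to 29.5 in CPT1a KO with acetate and 13.0 to 42.3 in KAT2a KO. The rank difference was 1.41 ± 0.27 (SE) in CPT1a KO, with an adjusted p of 0.00832 by limma, and 0.88 ± 0.27 in KAT2a KO, with an adjusted p of 0.0849. The genes whose rank was most like that of Cpt1a over the 12 libraries were 1600012H06Rik and Wdr27, which share a peak (Pearson r = 0.950), and Aif1l (r = 0.918). Among members r with Cpt1a was 0.577 for Cpt2 and -0.160 to 0.178 for the others. All are descriptions over libraries that share groups and depth, and over all genes the middle of the r values, by quartile, ran from -0.326 to 0.306.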

How the data were processed

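H3K9ac peak lists of 12 libraries were used, and the 12 input libraries were not analysed here. The authors deposited 1 list per library with no pooling. Their fold enrichment, as deposited, is a ratio between the summit signal and a local background. The sources used here do not say whether that background came from the library or from its input. The deposited -log10 p and -log10 q come from the peak caller, and the deposited score is 10 times the -log10 q rounded down. The submitters' processing notes name FastQC, Bowtie2, SAMtools, deepTools, MACS2, mm10 and dm6, while the study's methods name BWA on mm10 and Picard, so the aligner is stated in different ways. Caller settings, use of the inputs and scaling by the added Drosophila chromatin are not given in the sources used here. No value was scaled between libraries, and a change in total H3K9ac could not be measured.

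Promoters (1.0 kb on each side of each TSS) and gene bodies came from GENCODE vM21 (GRCm38), and a peak counted with an overlap of 1 bp. Groups and replicate numbers came from the labels. Normal scores of rank and log2 covered length were fitted with limma 3.58.1 in R 4.3.3, all 12 libraries in 1 fit with a mean per group, adjusted over 10777 genes and called at an adjusted p under 0.05. The rank fit was also run on simulated scores, and no such run was made for covered length. Exact permutation tests were two-sided, over 20 assignments (3 against 3) or 220 (3 against 9). Libraries were correlated only between groups, on deviations from the mean of their own group. Depths were solved from fold enrichment and -log10 p by the formulas of MACS2, and their precision covers counting only. Python 3.11.15, scipy 1.17.1 and samtools 1.23.1 were used. Named genes were all members, neighbours with a TSS within 1.0 kb, the targeted genes, up to 3 called genes of each list with the largest change and the 3 genes most like Cpt1a. Chkb, Col1a1 and Ckm were named after their values were seen. Members were chosen by transport step and not by measured values, but both members and lists were chosen with earlier results of these data known. Alternatives were the measure ranked, the scale, GC, window, genes kept, peak threshold, joining, depth, replicate block, test and left-out libraries.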

Additional observations from a re-analysis of the deposited data

How the results depend on the processing

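Of 1230 values of single members under alternatives, 1176 kept their side of the threshold, 38 lost a call, 15 gained one and 1 reversed. Among the 1176 were 79 uncalled differences that changed sign. By rank the main count of members called was 0 in every comparison. Ranking by -log10 p gave 1, Cpt1a, in KAT2a KO (adjusted p 0.0198), in CPT1a KO with acetate against scramble (0.0322) and in the 3 groups together (0.0124), where centred log2 fold enrichment (0.0424) and the replicate block (0.0489) also gave 1. Leaving out 1 library gave 0 to 0 members, and 0 to 1 in the 3 groups together. By width, the strongest peak alone gave 1 member in CPT1a KO, 0 in KAT2a KO, 0 in CPT1a KO with acetate and 1 in the 3 groups together, where Crot reversed to 0.0567. A depth covariate gave 1 in CPT1a KO and 1 in the 3 groups together, joining peaks within 500 bp gave 4 in the latter, and leaving out the 2 shallowest libraries, a choice made after the depths were seen, gave 2 in CPT1a KO. Leaving out 1 library gave 1 to 4 members in CPT1a KO, 0 to 1 in KAT2a KO, 0 to 0 between acetate and CPT1a KO, 0 to 2 in CPT1a KO with acetate and 1 to 3 in the 3 groups together. The difference in gene-body peaks of the members per library was -1.78, and -0.667 with a -log10 q of at least 5, -0.444 with peaks joined and -2.11 to -1.61 with 1 library left out. The cause of these changes was not tested.

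Over all genes, rank calls moved from 1060 to 3524 in CPT1a KO, 397 to 2452 in KAT2a KO, 574 to 2698 in CPT1a KO with acetate and 1385 to 4000 in the 3 groups together when ranked by -log10 p. They moved to 472, 231, 226 and 705 with a depth covariate, to 0 in each comparison of 3 against 3 with the exact test, whose smallest p is 0.1, to 321 in the acetate group with the GC trend removed, and to 517 and 178 in CPT1a KO and the acetate group without the 2 shallowest libraries. Windows of 500 bp gave 2 calls in place of 0 between acetate and CPT1a KO. The share of higher calls in the acetate group moved from 33.3% to 47.7% when ranked by -log10 p. Width calls moved from 6679, 2088, 3339 and 6043 to 2841, 313, 644 and 2767 with the strongest peak alone, from 2088 and 3339 to 4725 and 5382 in KAT2a KO and the acetate group with peaks joined, and in KAT2a KO to 3450 with a depth covariate and 4232 without the 2 shallowest libraries. The share of wider calls moved from 4.60% to 32.3% in KAT2a KO and from 1.71% to 13.2% in the acetate group with the strongest peak alone, and to 17.0%, 16.8% and, in the 3 groups together, from 2.05% to 13.4% with a depth covariate. With 1 library left out, rank calls ran from 407 to 1121, 36 to 496, 124 to 695 and 423 to 1500 in the same order, lowest without scramble replicate 3, 1, 1 and 1, and width calls from 4271 to 7024, 35 to 3663, 164 to 4846 and 3117 to 6315, lowest without scramble replicate 1, scramble replicate 3, acetate replicate 2 and scramble replicate 1. Between acetate and CPT1a KO the ranges were 0 to 9 and 0 to 2. Against scramble, calls moved by over 1.5 times without any 1 scramble library by rank and without scramble replicate 1 by width in each comparison. They also did so by rank without CPT1a KO replicate 3 (CPT1a KO), acetate replicate 1 or any KAT2a KO library (KAT2a KO) or any acetate library (acetate), and by width without CPT1a KO replicate 3 (CPT1a KO), scramble replicate 3, CPT1a KO replicate 3, acetate replicate 1 or KAT2a KO replicate 1 or 3 (KAT2a KO), or scramble replicate 3 or acetate replicate 1 or 2 (acetate).

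Deviations from group means in same-numbered libraries correlated at -0.063 to 0.060 by rank and -0.306 to 0.267 by width. Other pairs gave -0.086 to 0.105 and -0.252 to 0.369. By width the replicate block gave 0 members in KAT2a KO and called Slc22a5 in the 3 groups together (adjusted p 0.0319).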
